A study of Mus musculus with 6 samples.

Results

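The inflammatory CC chemokine ligands examined here are 10 mouse genes of myeloid cells, Ccl2, Ccl3, Ccl4, Ccl6, Ccl7, Ccl9, Ccl12, Ccl17, Ccl22 and Ccl24. They were chosen by symbol with earlier results of these arrays known, among them the contrast described below. All 10 were on the array, through 12 probe sets annotated to 1 of them alone, out of 18192 genes measured. Where a gene had more than 1 probe set, the one with the highest mean over the 6 arrays stands for the gene and is called the lead probe set. The series set cells forced to express EVI1, the DNA-binding product of Mecom known as an oncogene of myeloid leukaemia, against cells without the EGFP marker. Lineage-negative (Lin-) marrow progenitors of C57BL/6J mice carrying the Rosa26rtTA doxycycline-responsive transactivator were cultured with interleukin-3 at 20 ng/ml and stem cell factor, interleukin-11 and Flt3 ligand at 50 ng/ml each, and doxycycline (1 µg/ml) was given for 20 hours before the sort. The EGFP-positive group (3 arrays) carried the lentiviral vector pRRL.TET.EVI1.IRES.EGFP, which makes EVI1 and EGFP from a doxycycline-controlled promoter. The EGFP-negative group (3 arrays) is called untransduced by its source label, while the design text has a sort of negative or low cells. The word untransduced also appears in the description of the EGFP-positive samples, and sample titles set the groups here. Both groups share the transactivator. No arm with an EGFP-only vector was analysed here, so EVI1, transduction and high EGFP cannot be told apart.

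Chemokines are small secreted proteins that draw leukocytes along a gradient by binding G protein-coupled receptors, and those of the CC family carry an adjacent pair of cysteines near their start. The inflammatory members are made by monocytes, macrophages, mast cells, basophils and dendritic cells, often after NF-kB is activated by microbial products or cytokines. Ccl17, Ccl22 and Ccl24 belong to the set induced in macrophages and dendritic cells by interleukin-4 through STAT6. In marrow, Ccl3 is also known as an inhibitor of progenitor proliferation.

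The promoters of the members are shown because members that lie next to each other on a chromosome differed between the groups by unequal amounts. RefSeq sequence was found for 6 members (Ccl3, Ccl6, Ccl9, Ccl12, Ccl17 and Ccl22), and Ccl2, Ccl4, Ccl7 and Ccl24 are named only. The 250 bases before the start of each gene are taken from build GRCm38.p6 and written 5′ to 3′ on the gene's strand. By lead probe sets Ccl3 had the largest and Ccl9 the smallest difference as deposited, and Ccl22 and Ccl17 lie on either side of 1 other gene. Capitals mark matches to the 7 motifs named after the sequences.
Ccl3, chr11:83649379-83649628, minus strand: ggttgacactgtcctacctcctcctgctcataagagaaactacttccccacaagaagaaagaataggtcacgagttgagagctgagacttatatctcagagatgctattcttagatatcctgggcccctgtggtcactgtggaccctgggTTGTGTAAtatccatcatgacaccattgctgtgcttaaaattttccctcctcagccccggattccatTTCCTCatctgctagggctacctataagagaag
Ccl9, chr11:83578637-83578886, minus strand: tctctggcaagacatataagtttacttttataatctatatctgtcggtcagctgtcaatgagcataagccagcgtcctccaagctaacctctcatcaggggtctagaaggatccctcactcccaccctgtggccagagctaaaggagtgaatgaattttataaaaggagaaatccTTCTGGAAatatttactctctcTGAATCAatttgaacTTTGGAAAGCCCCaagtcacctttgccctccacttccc
Ccl22, chr8:94745434-94745683, plus strand: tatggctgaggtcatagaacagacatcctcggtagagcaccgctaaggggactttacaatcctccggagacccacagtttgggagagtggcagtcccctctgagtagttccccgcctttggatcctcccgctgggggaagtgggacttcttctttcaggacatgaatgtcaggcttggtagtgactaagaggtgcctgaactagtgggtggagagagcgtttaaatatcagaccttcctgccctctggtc
Ccl17, chr8:94810203-94810452, plus strand: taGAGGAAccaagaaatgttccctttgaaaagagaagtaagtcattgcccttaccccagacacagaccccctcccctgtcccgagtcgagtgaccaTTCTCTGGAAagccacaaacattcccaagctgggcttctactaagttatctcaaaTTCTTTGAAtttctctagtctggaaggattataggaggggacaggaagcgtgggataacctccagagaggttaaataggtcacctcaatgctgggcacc

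The motifs were searched on both strands. The NF-kB-type decamer was found in 1 of the 6 member windows, that of Ccl9, from 35 to 26 bases before the start, and in 4.11% of all 32851 promoter windows of that length in the table. The same Ccl9 window held the AP-1-type motif TGANTCA (6.75% of all windows) from 53 to 47 bases before the start and the C/EBP-type motif TTNCNNAA (36.8%) at 2 places, of which the one nearer the start overlaps the NF-kB-type match. The Ccl17 window alone among the 6 held the STAT6-type motif (5.85% of all windows), from 154 to 145 bases before the start, and the STAT-type motif TTCNNNGAA (7.02%), from 99 to 91 bases before it. The ETS/PU.1-type motif GAGGAA, in 23.3% of all windows, was found for Ccl3, Ccl12 and Ccl17, and the Ccl3 window also held a C/EBP-type match. The EVI1-type motif GACAAGATA was in 0 of 6 member windows and 0.107% of all windows. The windows of Ccl6 and Ccl22 held none of these letters. A match is a description of the sequence, and binding was not measured.

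All values below are log2 expression values as deposited. The brightest value of a gene on any array was 14.46. The array has 64 control probe sets, of which 27 for the bacterial transcripts dap, lys, phe, thr and trpn were used to report background. They read between 1.13 and 3.61, and 3.61 is used as a ceiling for background. Other control probe sets were not used for it. Array medians lay between 5.11 and 5.14. Mecom averaged 8.26 ± 0.09 (SD, n = 3) without and 7.97 ± 0.20 with EGFP (limma, Benjamini-Hochberg adjusted p = 0.13), and no source used here says whether its probe set matches the vector's EVI1, so it does not check the labels. The 3′ signal of Actb exceeded its 5′ signal by 0.80 ± 0.05 (SD, n = 3) without and 1.00 ± 0.03 with EGFP, and that of Gapdh by 0.82 ± 0.02 and 1.06 ± 0.04. This sign of RNA quality or amplification moves with the groups and so stands beside every difference below, and its part in them was not tested. The labels do not state whether replicates are separate cultures or mice, and p-values then rest on a spread between samples that may be technical.

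Every one of the 10 chemokine genes was lower in the EGFP-positive arrays, with log2 differences (EGFP-positive minus EGFP-negative) from -0.63 (Ccl9) to -4.12 (Ccl3). Ccl3 and Ccl4 differed most, and Ccl2, Ccl17, Ccl22 and Ccl24 were about 2 log2 units lower. Ccl6 and Ccl9 differed less by their lead probe sets, and the sizes for Ccl7 and Ccl12, which reached background, are bounds. The median member difference was -1.98 (-1.85 when dimmer values are raised to the ceiling), against 0.02 over all genes. For 10 of 10 members the 3 EGFP-positive arrays lay below the 3 EGFP-negative arrays, with a gap between the nearest arrays of 0.56 (Ccl9) to 3.95 (Ccl3), while 48.2% of all genes had groups that did not overlap in either direction. In the fit over all genes (limma, Benjamini-Hochberg adjusted p under 0.05) 10 of 10 were called lower and 0 higher, where 17.2% of genes were called lower, 16% higher and 33.2% in all. Because the members were chosen with this contrast known, these differences are a description, no p-value is given for a member, and nothing is read from the count. Each array measured a whole sorted fraction, so fewer cells of a type and less RNA per cell cannot be told apart.

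**Figure D1:**
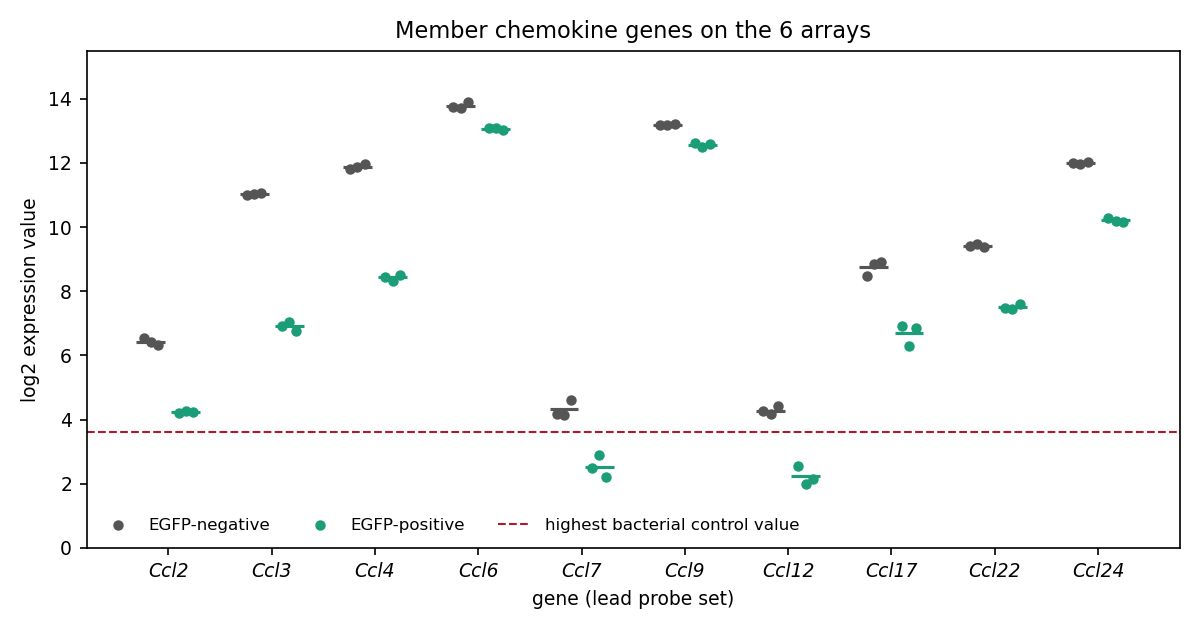
Log2 expression values of the lead probe set of each of the 10 member genes on the 3 EGFP-negative and 3 EGFP-positive arrays (points), with group means (short lines). The dashed line at 3.61 is the highest value of the 27 bacterial controls used. In every gene the EGFP-positive arrays lie below the EGFP-negative arrays, and those of Ccl7 and Ccl12 lie below the dashed line.

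Ccl3 and Ccl4, the macrophage inflammatory proteins 1-alpha and 1-beta, attract monocytes and lymphocytes, and Ccl3 binds CCR1. Ccl3 (1419561_at) stood at 11.00, 11.03 and 11.06 on the EGFP-negative arrays, given here and below in the order of replicates 1 to 3, and at 6.92, 7.05 and 6.76 on the EGFP-positive ones. All EGFP-positive arrays were far below all EGFP-negative arrays. The difference was -4.12 (SE 0.10), or 17.4-fold lower, the 17th most negative of the 18192 genes. Ccl4 (1421578_at) stood at 11.82, 11.88 and 11.96 on the EGFP-negative arrays and at 8.45, 8.33 and 8.52 on the EGFP-positive ones. Again the groups were wide apart and the replicates close. The Ccl4 difference was -3.46 (SE 0.09), 11.0-fold lower and 40th in that order. Both genes lay above the ceiling in every EGFP-positive array.

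Ccl2, Ccl7 and Ccl12, the monocyte chemoattractant proteins, signal through CCR2, the receptor by which monocytes leave the marrow. Ccl2 (1420380_at) stood at 6.54, 6.42 and 6.32 on the EGFP-negative arrays and at 4.21, 4.27 and 4.24 on the EGFP-positive ones, a difference of -2.19 (SE 0.09) or 4.55-fold. The EGFP-positive values were nearly equal and sat not far above the ceiling. Ccl7 (1421228_at) stood at 4.18, 4.15 and 4.62 on the EGFP-negative arrays and at 2.48, 2.89 and 2.20 on the EGFP-positive ones. Ccl12 (1419282_at) stood at 4.25, 4.17 and 4.42 on the EGFP-negative arrays and at 2.55, 1.99 and 2.16 on the EGFP-positive ones. For both genes the EGFP-negative arrays were just above the ceiling and the EGFP-positive arrays all within the range of the bacterial controls used. The differences as deposited were -1.80 (SE 0.21) for Ccl7 and -2.05 (SE 0.16) for Ccl12. With EGFP-positive arrays set to the ceiling, Ccl7 was at least 1.63-fold and Ccl12 at least 1.59-fold lower.

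Ccl17 and Ccl22, the ligands of CCR4 that attract T helper 2 and regulatory T cells, had like differences. Ccl17 (1419413_at) stood at 8.48, 8.85 and 8.91 on the EGFP-negative arrays and at 6.91, 6.28 and 6.86 on the EGFP-positive ones, a difference of -2.06 (SE 0.21) or 4.18-fold. Its EGFP-positive replicates were more spread (SD 0.35) than those of Ccl22 (SD 0.09), and replicate 2 was its lowest array. Ccl22 (1417925_at) stood at 9.40, 9.48 and 9.38 on the EGFP-negative arrays and at 7.48, 7.44 and 7.61 on the EGFP-positive ones, a difference of -1.91 (SE 0.09) or 3.76-fold. Its replicates were close and the groups well apart.

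Ccl24, or eotaxin-2, attracts eosinophils through CCR3. Ccl24 (1450488_at) stood at 11.996, 11.97 and 12.04 on the EGFP-negative arrays and at 10.30, 10.20 and 10.16 on the EGFP-positive ones, a difference of -1.78 (SE 0.08) or 3.45-fold. All its EGFP-positive values lay well above the ceiling.

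Ccl6 and Ccl9 are rodent chemokines that bind CCR1 and are made by myeloid cells without a stimulus. The lead probe set of Ccl6 (1417266_at) stood at 13.75, 13.73 and 13.90 on the EGFP-negative arrays and at 13.08, 13.08 and 13.04 on the EGFP-positive ones, a difference of -0.73 (SE 0.08) or 1.65-fold. That of Ccl9 (1417936_at) stood at 13.18, 13.19 and 13.22 on the EGFP-negative arrays and at 12.62, 12.50 and 12.58 on the EGFP-positive ones, a difference of -0.63 (SE 0.08) or 1.55-fold. Both lead probe sets were near the top of the scale in both groups. Each gene had a second, dimmer probe set with a larger difference. For Ccl6 the second (1420249_s_at) stood at 12.54, 12.55 and 12.63 on the EGFP-negative arrays and at 10.98, 10.99 and 11.05 on the EGFP-positive ones, a difference of -1.56 (SE 0.09). For Ccl9 the second (1448898_at) stood at 10.08, 10.02 and 10.03 on the EGFP-negative arrays and at 8.53, 8.49 and 8.35 on the EGFP-positive ones, a difference of -1.59 (SE 0.09). The probe sets of each gene thus had the same direction and differed in size by more than 0.8 log2 units. With the mean of both probe sets the differences were -1.14 for Ccl6 and -1.11 for Ccl9. The suffix of 1420249_s_at marks probes that can match related transcripts too, and the cause of the unequal sizes was not tested.

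**Figure D2:**
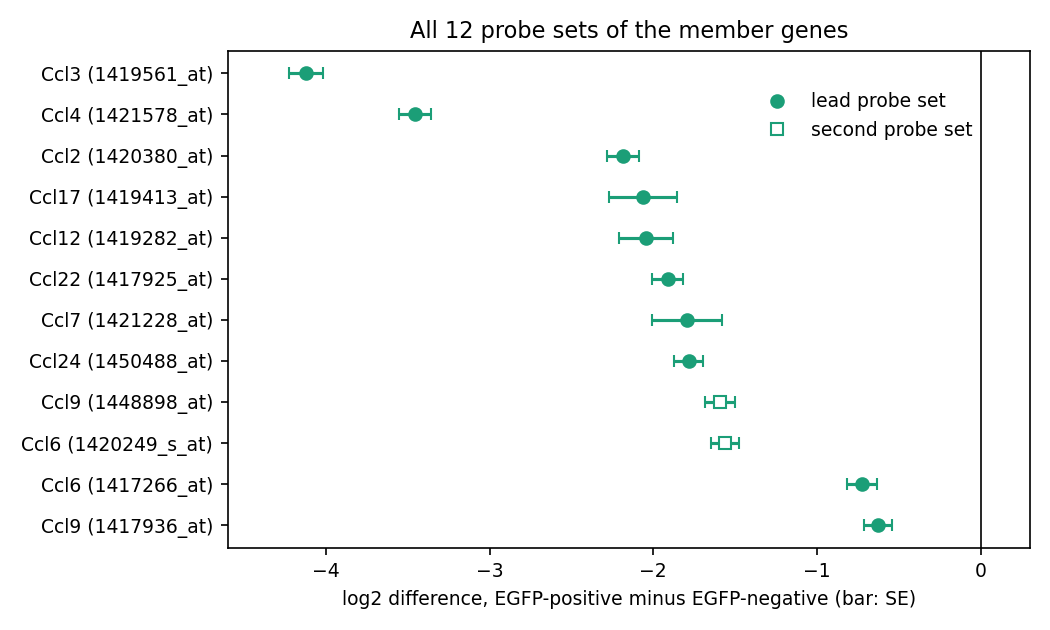
Log2 difference between the group means (EGFP-positive minus EGFP-negative) of all 12 probe sets of the member genes, with SE bars from the limma fit over all probe sets. Filled circles are lead probe sets and open squares the second probe sets of Ccl6 and Ccl9, which lie at -1.56 and -1.59, beyond their lead probe sets at -0.73 and -0.63.

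The members lie in 3 stretches of neighbouring genes and 1 separate place, by the RefSeq order of protein-coding genes in GRCm38.p6. On chromosome 11 Ccl9, Ccl6, Ccl3 and Ccl4 are neighbours in that order, with Ccl5 before and Wfdc17 after. Within this run the lead differences went from -0.63 and -0.73 for Ccl9 and Ccl6 to -4.12 and -3.46 for Ccl3 and Ccl4. They did not follow a common size, but by their second probe sets Ccl9 and Ccl6 differed by -1.59 and -1.56. Ccl5, a chemokine of T cells and other leukocytes, fell by 1.33 (7.14 ± 0.14 to 5.81 ± 0.53, SD, n = 3; limma adjusted p = 0.0099). Wfdc17 differed by -1.57 (7.57 ± 0.17 to 6.00 ± 0.60). The other run on chromosome 11 is Ccl2, Ccl7, Ccl11, Ccl12 and Ccl8. The eotaxin gene Ccl11 and the monocyte chemoattractant gene Ccl8 lay under the ceiling in all arrays (2.20 and 2.29, and 2.51 and 2.76, as group means), so no fold is given. On chromosome 8 Cx3cl1, which encodes a membrane-bound chemokine, stands between Ccl22 and Ccl17. It was higher in EGFP-positive arrays by 0.57 (5.12 ± 0.14 to 5.69 ± 0.22, SD, n = 3; limma adjusted p = 0.022), while both of its neighbours were lower. Ciapin1, next to Ccl17, differed by 0.48, and Pllp, next to Ccl22, read 3.66 and 3.62. On chromosome 5 Ccl24 is flanked by Ccl26, not analysed here, and by Rhbdd2, which differed by 0.02. Neighbours were looked up after the members' values were seen, and those outside the ligand list are given without a test.

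**Figure D3:**
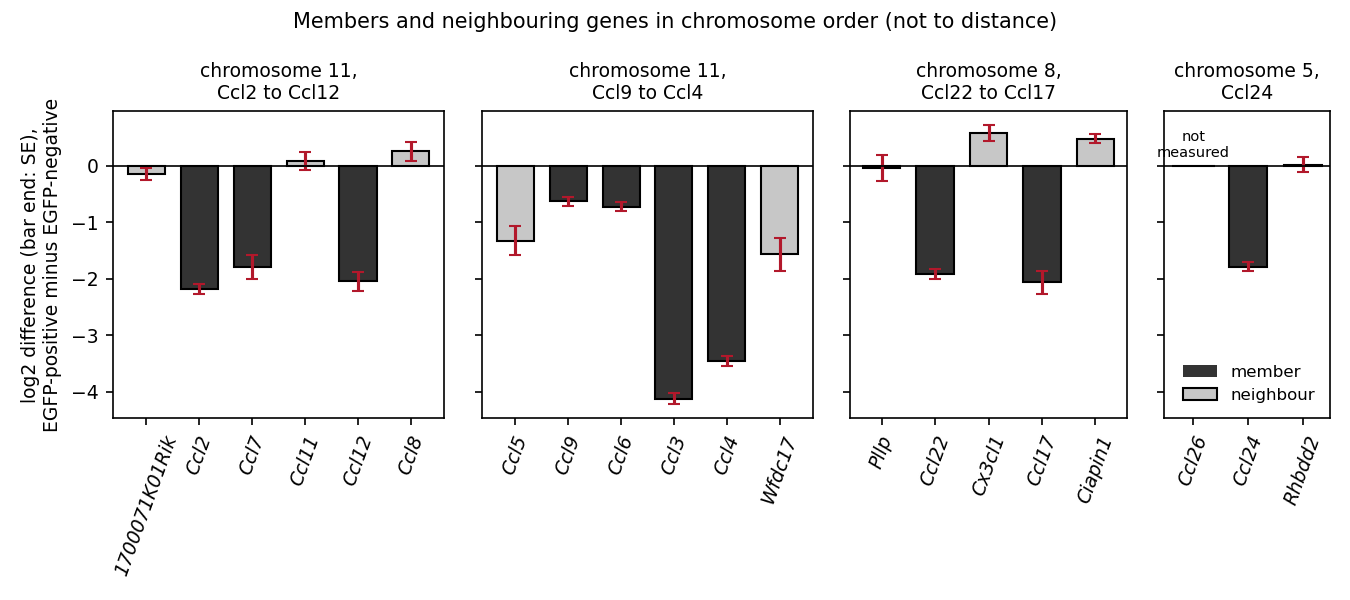
Log2 difference (EGFP-positive minus EGFP-negative, SE bars) of the member genes (dark bars) and the genes next to them (light bars), in chromosome order without distances. Only lead probe sets are drawn, and the second probe sets of Ccl9 and Ccl6 read -1.59 and -1.56. Ccl3 and Ccl4 at -4.12 and -3.46 stand beside Ccl9 and Ccl6 at -0.63 and -0.73, and Cx3cl1 at 0.57 stands between Ccl22 and Ccl17 at -1.91 and -2.06.

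Other chemokine ligands did not share one direction. Of 25 measured CC, CXC, CX3C and XC ligands that are not members, 4 rose and 3 fell (limma, adjusted p under 0.05), and their median difference was 0.05. That is 28% called, near the 33.2% of all genes. The platelet chemokine gene Ppbp rose by 3.00 (7.05 ± 0.09 to 10.05 ± 0.02, SD, n = 3; adjusted p = 1.55e-05) and the skin-associated Ccl27a by 1.46 (adjusted p = 0.00518), with Cx3cl1 as above. The probe set of Ccl27a is of a type that can match related sequences. Cxcl5 also passed, but its means of 1.66 and 2.51 were both under the ceiling. Besides Ccl5, the falls were the neutrophil attractant Cxcl2 (-0.81, adjusted p = 0.0052) and the membrane-bound Cxcl16 (-0.51, adjusted p = 0.0263). On all 6 arrays 12 of the 25 lay under the ceiling, and 8 of the 10 members lay above it on all 6. The members were chosen with results of these arrays known, so nothing is read from setting these counts side by side. Without EGFP-negative replicate 3 the count of rises was 2.

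Chemokine receptor genes that changed were mostly lower. Of 22 measured, 7 fell and 2 rose, with a median difference of -0.10. That is 40.9% called, not far from the 33.2% of all genes, and nothing is read from the count. On all 6 arrays 8 of the 22 lay under the ceiling. Ccr1, the receptor of Ccl3, Ccl6 and Ccl9, stood at 8.70, 8.84 and 8.74 on the EGFP-negative arrays and at 5.87, 5.51 and 5.84 on the EGFP-positive ones, and fell by 3.02 (SE 0.12; limma adjusted p = 3.41e-05). Ccr2, the receptor of Ccl2, Ccl7 and Ccl12, stood at 9.03, 8.999 and 9.26 on the EGFP-negative arrays and at 6.49, 5.97 and 6.85 on the EGFP-positive ones, and fell by 2.66 (SE 0.225; limma adjusted p = 0.000349). In both receptors all EGFP-positive arrays were below all EGFP-negative arrays. Ccr3, the receptor of Ccl24, and Ccr4, that of Ccl17 and Ccl22, were under the ceiling on all 6 arrays, with group means of 1.49 and 1.67 and of 2.64 and 2.58. Falls were also called for Cxcr4, which holds progenitors in the marrow (-1.14), the neutrophil receptor Cxcr2 (-1.11), the lymph node homing receptor Ccr7 (-1.44), Ackr4 and Ccr10. Ccr10 read near the ceiling (4.16 and 3.73 as group means), so its fold is a lower bound. The rises were Ackr1, the Duffy antigen that takes up inflammatory chemokines on red cells (0.95, from 8.02 ± 0.01 to 8.96 ± 0.12, SD, n = 3; adjusted p = 0.000533), and Ccr9 (1.07, adjusted p = 0.00717).

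**Figure D4:**
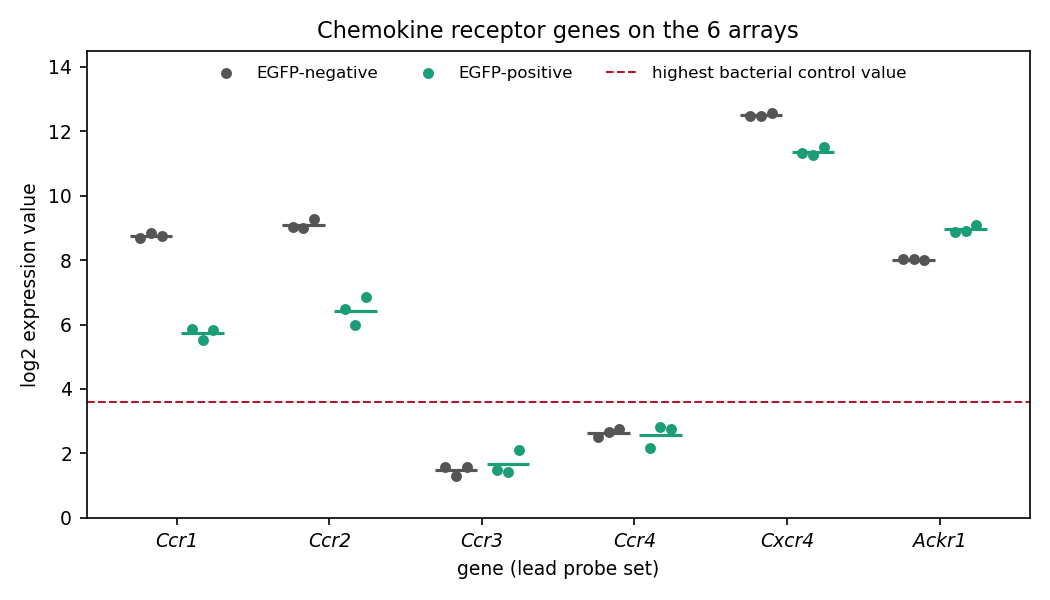
Log2 expression values of 6 chemokine receptor genes on the 3 EGFP-negative and 3 EGFP-positive arrays (points), with group means (short lines). The dashed line at 3.61 is the highest value of the 27 bacterial controls used. Ccr1, Ccr2 and Cxcr4 are lower and Ackr1 higher in EGFP-positive arrays, and Ccr3 and Ccr4 lie below the dashed line in both groups.

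Genes of NF-kB signalling went both ways. Of 24 measured, 12 rose and 4 fell, with a median difference of 0.31. Nfkb1 and Chuk were listed but not measured. In all 66.7% of this list was called, against 33.2% of all genes. However, 23 of the 24 lay above the ceiling on all 6 arrays, and genes above background were called more often. Among genes above the ceiling on at least 3 arrays 48.4% were called. With only the brighter genes 59.4% were called, beside 13 rises and 2 falls among 21 genes of this list. Nothing is read from the share. The falls were the 4 cytokine genes Tnf (-1.44, from 6.93 ± 0.04 to 5.49 ± 0.04, SD, n = 3; limma adjusted p = 7.07e-05), Il6 (-1.11), Il1b (-0.78) and Il1a (-2.38, with EGFP-positive values of 4.06 ± 0.88 that reach the ceiling). The rises included Bcl3, an NF-kB cofactor (1.48, adjusted p = 9.37e-05), Tnfaip2 (1.01), the adaptor gene Traf1 (0.71) and Zfp36, whose product tristetraprolin binds and destabilises messenger RNAs of cytokines and chemokines (0.99, from 9.11 ± 0.04 to 10.09 ± 0.05; adjusted p = 0.000258). The remaining rises were Relb (0.89), Nfkbie, Ikbkg, Nfkbiz, Myd88, Birc3, Rela and Ikbkb (0.30). Without EGFP-negative replicate 1 the count of rises was 6.

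Genes listed for the interleukin-4 and STAT6 type 2 response, the setting in which Ccl17, Ccl22 and Ccl24 are known to be induced, were mostly lower. Of 23 measured, 14 fell and 3 rose, with a median difference of -0.64. In all 73.9% of this list was called, against 33.2% of all genes. The list also holds Cish, Csf2ra, Csf2rb, Jak2, Stat5a and Stat5b, which are not particular to interleukin-4 and STAT6. The counts and the median include them. Arg1, the arginase of alternatively activated macrophages, fell by 3.22 (11.46 ± 0.02 to 8.24 ± 0.27, SD, n = 3; limma adjusted p = 4.07e-05). Irf4, a factor of alternatively activated macrophages and dendritic cells, fell by 1.28 (12.30 ± 0.01 to 11.02 ± 0.09; adjusted p = 0.000135), and the lectin gene Mgl2 also fell by 1.28. The cytokine gene Il13 fell by 1.39 (6.52 ± 0.11 to 5.13 ± 0.15) and Klf4 by 1.43. Csf2rb, the beta chain shared by receptors of interleukin-3 and related cytokines, differed by -1.502 and passed too. Stat6 itself did not pass (0.39, adjusted p = 0.067). The cytokine gene Il4 fell by 2.05 (6.62 ± 0.28 to 4.57 ± 0.40; adjusted p = 0.00117) and its receptor gene Il4ra by 0.64 (adjusted p = 0.00349). The rises were Stat5a (0.44), Jak2 (0.37) and Il13ra1 (0.38), and their count was 1 without EGFP-negative replicate 1, without EGFP-negative replicate 2 or with the replicate number as a block.

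**Figure D5:**
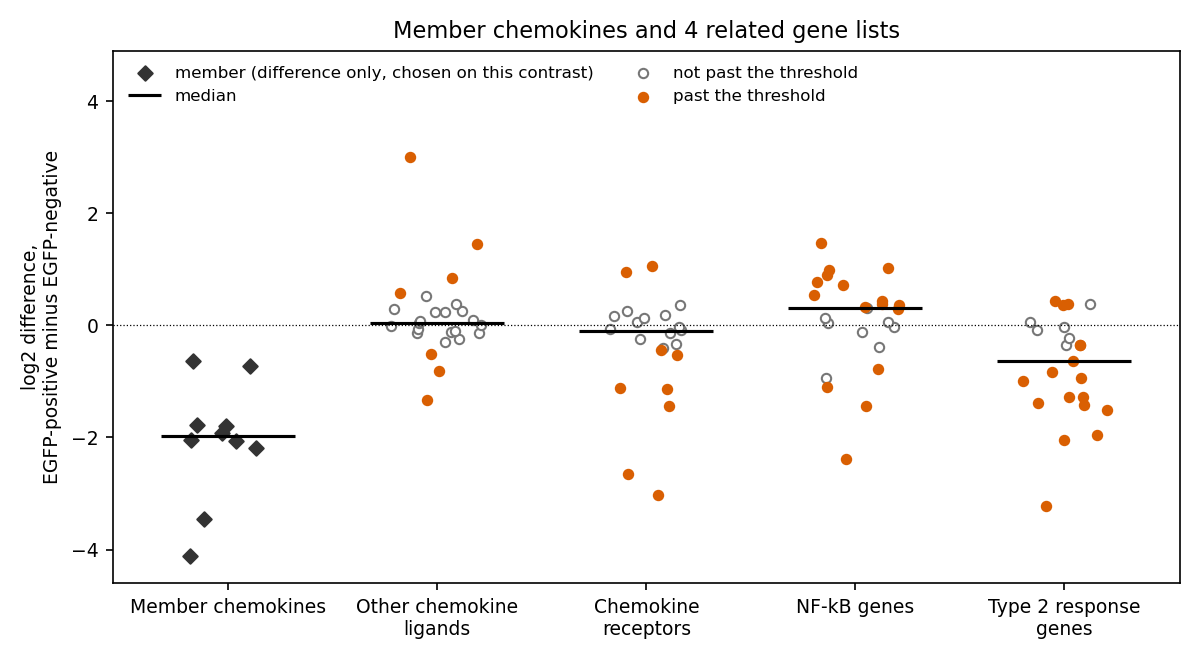
Log2 difference (EGFP-positive minus EGFP-negative) of each measured gene of 5 lists, with list medians (lines). Filled orange circles passed the threshold of an adjusted p under 0.05 (limma), open circles did not, and diamonds are the 10 member chemokines, shown without a test. The medians are -1.98, 0.05, -0.10, 0.31 and -0.64 from left to right.

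Markers of the cell types that make these chemokines also differed between the fractions. Beside the counts below, 17.2% of all genes were called lower and 16% higher. Among genes above the ceiling on at least 3 arrays 48.4% were called in either direction. Of 13 monocyte and macrophage markers 7 fell, among them Csf1r (-1.37), Adgre1 (-2.07) and Cd14 (-1.70), and 4 rose, Cd68 (0.80), Lyz2 (0.40), Mpeg1 (1.19) and Fcgr1 (0.85). Their summed linear signal ran from 6552 to 6698 in EGFP-negative and from 6392 to 6581 in EGFP-positive arrays. Such a sum mostly follows its brightest genes, here Cd68 (10.94 and 11.74 as group means), and can hide falls of dimmer ones. The mean log2 level of these markers was 7.51 to 7.57 in EGFP-negative and 6.81 to 6.88 in EGFP-positive arrays. C1qa was under the ceiling on all EGFP-positive arrays. Of 8 mast cell and basophil markers 6 fell and 0 rose, such as Cpa3 (-3.46), and their sum went from between 20667 and 20707 to between 9787 and 10516, with Tpsb2 under the ceiling on all EGFP-positive arrays. Their brightest gene was Gata2 (12.89 and 12.73), which was not called and also stands in the progenitor list. Their median difference was -1.80. Of 11 dendritic cell markers 6 fell and 0 rose (sums of 11680 to 11876 and 10515 to 11009), with Xcr1 and Cd209a under the ceiling throughout. Their brightest gene was Cd74 (12.84 and 13.03), and their mean log2 level was 7.29 to 7.39 and 6.66 to 6.81. Of 6 eosinophil markers 4 fell and 0 rose (1608 to 1820 and 215 to 353), with Ccr3 under the ceiling throughout and Siglecf on all EGFP-positive arrays. All 9 neutrophil markers measured fell (53077 to 56393 and 27626 to 28223). Their brightest genes were S100a9 (-0.39) and S100a8 (-0.30), while the median difference of the list was -3.09. Of 9 T and NK cell markers 5 fell and 0 rose (6894 to 6995 and 1279 to 1441), with Cd3g under the ceiling throughout. The falls were Nkg7, Gzmb, Gzma, Klrd1 and Cd3e. Cd3d (0.02), Cd8a (0.28) and Prf1 (0.24) were not called, and Cd3d and Cd8a read near the ceiling. The sum mostly follows Gzmb (11.77 and 9.58) and Nkg7 (11.43 and 7.84). Of 5 progenitor markers 3 fell and 0 rose (17062 to 17206 and 11538 to 11834). Among them Kit (7.58 ± 0.09 and 6.60 ± 0.22, SD, n = 3) and Cd34 (10.48 ± 0.09 and 7.74 ± 0.17) were above the ceiling on every array. The part of these marker changes in the chemokine differences was not tested.

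The genes nearest to each member were found from the distance between their 6-array log2 profiles, each centred on its mean, among 12159 genes that are no members and lie above the ceiling on all 6 arrays. With 2 groups of 3 arrays, this distance mostly follows the size of the group difference. Nearest to Ccl3 were the myeloid receptor genes Siglece (distance 0.29 log2 units) and Cd300c2 (0.58). Nearest to Ccl4 were Lipg, an endothelial lipase gene (0.26), and the mast cell protease gene Cpa3 (0.29). For Ccl2 they were 2700099C18Rik (0.11) and Rab44 (0.22), for Ccl24 Jdp2 (0.05) and the cyclin gene Ccna2 (0.10), and for Ccl22 the repair gene Neil3 (0.16) and Dtx4 (0.16). Those of Ccl17 were the centromere protein genes Cenpn (0.29) and Cenpi (0.30). Ccl6 was nearest to Pck2 (0.08) and Rpl22l1 (0.09), and Ccl9 to Ube2g2 (0.05) and Atp5b (0.07). Ccl7 and Ccl12 did not lie above the ceiling on all arrays and were left out.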

How the data were processed

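Expression was measured on 6 Affymetrix arrays, 1 per RNA sample. Per the labels' protocols, RNA was amplified from the 3′ end. The authors deposited log2 values per probe set, made by RMA, of no stated version, per the submitters' processing notes. The arrays carry no read depth and 3 arrays per group limit the precision. Of 45037 probe sets, 34945 had 1 gene in GEO's platform annotation and 932 had several. The lead probe sets (18192 genes) entered limma (version 3.58.1, R 4.3.3; lmFit and eBayes, no covariate) and were tested two-sided, with p adjusted by Benjamini-Hochberg across every gene at a threshold of 0.05. A fold whose dimmer group has an array under the bacterial ceiling is a lower bound. On simulated arrays (18192 genes, 200 changed) changes of 0.5 log2 units were found in 13.8% of cases, of 1 in 56.8% and of 2 in 88.4%, with 4.1% false calls. Far fewer genes were changed there than the 6045 called here. The Benjamini-Hochberg cut-off depends on that share, so these rates are not the sensitivity of the fit to the real arrays. The members and lists were chosen with earlier results of these data known. Named were all members, up to 6 called genes per pathway list by smallest p, and genes spelling out small counts. Beyond that rule, Ackr4, Ccr10 and the remaining NF-kB rises were named to complete their counts. Stat6, Il4, Il4ra and the member receptors Ccr3 and Ccr4 were named for their roles, after values were seen. The alternatives were the replicate block, 2 scalings, 2 filters, eBayes options, 2 probe set rules and leaving out each array.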

Additional observations from a re-analysis of the deposited data

How the results depend on the processing

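Every member tested was lower and called under each of the 15 alternatives, in which 24.4% to 59.4% of all genes were called, and as for the main count nothing is read from this. With only the brighter genes, where 59.4% of genes were called, 7 members were tested and called, and Ccl2, Ccl7 and Ccl12 were left out by that filter. Ccl6 ran from -1.56 to -0.67 and Ccl9 from -1.59 to -0.60, the larger sizes with the most variable probe set. The replicate numbers did not pair the arrays (correlations of same-numbered deviations 0.01, -0.01 and 0.00, and not every array correlated best with its own number). With the replicate number as a block, 10 members were called lower beside 26.9% of all genes in either direction, and rises among type 2 response genes went from 3 to 1. Rises among receptors went from 2 to 1 with only the brighter genes, where 8 were tested, and to 1 with the mean of all probe sets. Falls among NF-kB genes went from 4 to 2 with only the brighter genes. Leaving out 1 array at a time gave 2 to 4 rises among other ligands, 6 to 11 among NF-kB genes and 1 to 3 among type 2 response genes. The causes were not tested. The remaining counts were within 1.5 times those reported. Signal near the bacterial ceiling limits Ccl7 and Ccl12, whose sizes are bounds.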
